A study of Mus musculus with 12 samples.

Results

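The 10 osteoclast effector genes followed here were Acp5, Ctsk, Oscar, Dcstamp, Ocstamp, Atp6v0d2, Nfatc1, Itgb3, Calcr and Car2. They were taken by name from a table of 21965 genes, and were chosen with earlier results of these data known. They were read in RNA-seq of mouse gingival tissue. There were 12 libraries, 3 in each of 4 groups. WT mice were wild type, C57BL/6 by the labels and C57BL/6J by the study's methods, and the knockout mice, labelled Cybb-/- and called CybbKO here, carry a disrupted gene for the Nox2 catalytic subunit in all cells. Ligated mice carried a silk ligature around a maxillary molar for 8 days, which gathers bacteria and inflames the gum, while naive mice had no ligature. All mice were younger than 12 weeks, and each library came from a different mouse. The WT mice were bought from a supplier and the knockout mice came from a separate colony. No source used here calls them littermates, so genotype and colony cannot be told apart.

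Osteoclasts are large, multinucleated cells that form by fusion of monocyte precursors and dissolve bone. M-CSF and RANKL, acting on the receptors CSF1R and RANK, start the program, and the transcription factor NFATc1, together with AP-1, PU.1 and MITF, drives its late genes. The finished cell seals itself onto bone through an integrin, pumps acid onto the mineral and secretes cathepsin K to digest the collagen. In periodontitis these cells remove the alveolar bone around the tooth. They sit on bone, and the libraries came from the gum beside it.

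Total counts ran from 27958819 to 42613423 per library. After edgeR's filter on low counts, 15046 genes were tested, among them 9 of the 10 members, since Calcr fell under the filter. Cybb, the targeted gene, went against a loss of its transcript. It lay between 41.6 and 63.7 CPM, counts scaled to the depth of each library, in the 6 libraries labelled CybbKO and between 4.19 and 15.2 CPM in the 6 WT libraries. Gene counts do not show whether those reads came from a disrupted transcript, so the label is used as given and every genotype direction below is that of libraries labelled CybbKO. Keratinocyte genes of the oral epithelium were abundant in every library, at 62160 to 128117 CPM for 8 genes together. Of the tooth markers, Dspp and Amelx, which mark dentin and enamel forming cells, were at 0 counts in all libraries. Enam had 1 read in all, Ambn had 1 to 17 reads and Amtn 1 to 16 per library, and Odam, which gum epithelium at the tooth surface also makes, lay at 243 to 866 CPM. Markers of bone-forming cells were present in every library.

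The promoter letters are shown for Ctsk and Oscar, a protease and a receptor gene that both rose with the ligature. RefSeq windows on GRCm38.p6 matched 4 of the 10 members. The windows printed are the 250 bases before the start, at chr3:95498960-95499209 on the plus strand for Ctsk and at chr7:3616158-3616407 on the minus strand for Oscar, each read 5′ to 3′ along its gene. Capitals mark matches, on either strand, to the 5 motif groups searched, which were the NFAT core GGAAA, the AP-1 site TGANTCA, the MITF E-boxes CACGTG and CATGTG, the PU.1 site GAGGAAG and the TATA box TATAAA.
Ctsk: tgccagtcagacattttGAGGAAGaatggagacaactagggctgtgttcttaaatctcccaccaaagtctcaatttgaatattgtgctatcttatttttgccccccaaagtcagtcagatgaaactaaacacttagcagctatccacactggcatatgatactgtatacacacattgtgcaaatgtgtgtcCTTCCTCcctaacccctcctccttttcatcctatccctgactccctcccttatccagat
Oscar: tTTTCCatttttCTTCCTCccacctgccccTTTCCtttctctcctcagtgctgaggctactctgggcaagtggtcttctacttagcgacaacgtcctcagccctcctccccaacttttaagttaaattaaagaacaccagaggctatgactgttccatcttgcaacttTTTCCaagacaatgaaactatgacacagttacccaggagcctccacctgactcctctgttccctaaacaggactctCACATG
Ctsk held 2 PU.1 matches, 233 and 59 bases before the start, and 0 NFAT cores. Oscar held 3 NFAT cores, at 249, 220 and 82 bases before the start, 1 PU.1 match at 238 and 1 E-box at 6. Neither window held an AP-1 or TATA match. Of all 32851 windows, 10.6% held the PU.1 letters, 55.6% the NFAT core, 17.6% an E-box, 6.75% the AP-1 letters and 12.4% the TATA box. Acp5 had 3 annotated starts and Calcr 2, and gene counts do not show which were used, so neither is printed. Each Acp5 window held the NFAT core, and the window at chr9:22130599-22130848 also held an E-box. Of the Calcr windows, only the one at chr6:3764714-3764963 held any of the motifs, an NFAT core. Dcstamp, Ocstamp, Atp6v0d2, Nfatc1, Itgb3 and Car2 had no entry. These matches describe letters and are not evidence of binding.

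The ligature raised 7 of the 9 tested members when both genotypes were averaged, 6 libraries against 6. Atp6v0d2 rose 21.5-fold, Ocstamp 7.86-fold, Dcstamp 6.84-fold, Oscar 6.62-fold, Ctsk 5.46-fold, Itgb3 2.67-fold and Acp5 2.07-fold. Nfatc1 and Car2 did not pass the test. Among all tested genes edgeR called 14.7% higher in the same contrast, and the median log2 fold change was 2.45 over the tested members and -0.03 over all tested genes. DESeq2 called 7 of the 9, against 16.1% of all genes higher. In bulk tissue, more cells of a type and more RNA per cell cannot be told apart. Without WT ligated replicate 3 all 7 calls held, and the average log2 fold change was 2.10 for Dcstamp and 3.83 for Atp6v0d2, each lower by over 1.5-fold. The members differed greatly in level, so several of these folds rest on few reads.

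**Figure D1:**
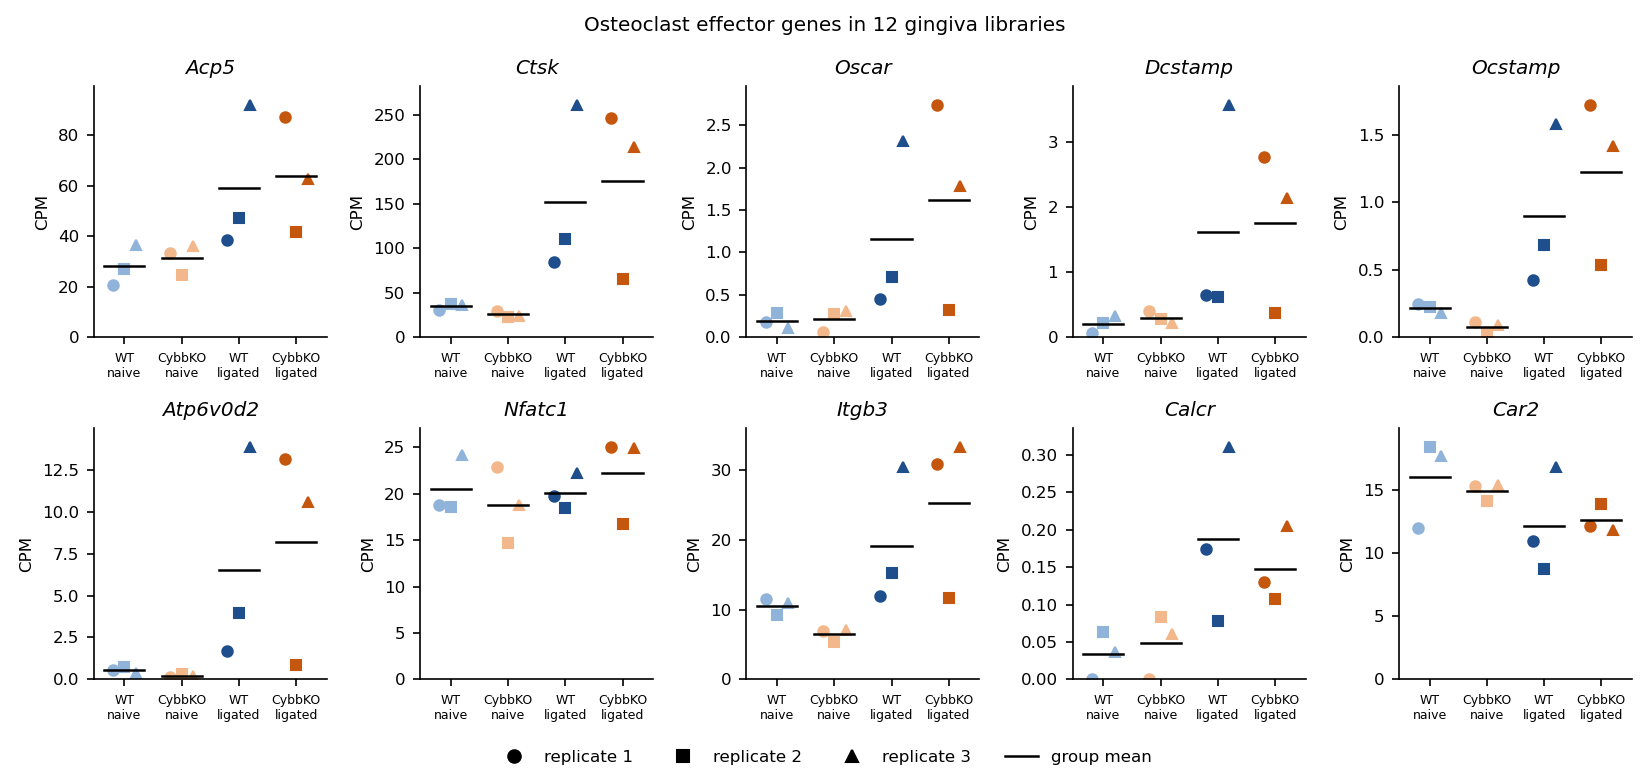
Each panel plots CPM (counts scaled to library depth, linear axis from 0) of 1 member in the 12 libraries, with circles, squares and triangles for replicates 1, 2 and 3 and a line at the group mean; CybbKO names the label. Ctsk lay between 23 and 37.6 CPM in the naive libraries and between 65.6 and 262 CPM in the ligated ones, while Nfatc1 and Car2 overlapped between conditions.

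Ctsk encodes cathepsin K, the collagen-cutting protease of the resorbing osteoclast, and lies at chr3:95499256-95509362. It was the highest member per length, at 101 ± 63.2 CPM per kb of exon (SD, n = 3) in ligated WT tissue. In CPM it measured 84.9, 110 and 262 in the WT ligated libraries and 31.2, 37.6 and 36.0 in the WT naive ones. In the libraries labelled CybbKO it measured 247, 65.6 and 214 CPM ligated and 29.7, 23 and 24.3 CPM naive. All 6 ligated libraries lay above all 6 naive ones. The log2 fold change was 2.12 (SE 0.47, adjusted p = 0.0375) in WT, 2.77 (SE 0.48, adjusted p = 0.00464) in the libraries labelled CybbKO, and 2.45 (SE 0.34, adjusted p = 0.000666) on average, all by edgeR's quasi-likelihood test. Ctsk was the only member that edgeR called in WT, and this call held in 1 of the 6 fits that left out 1 library, the one without WT ligated replicate 1. In the other 5 the adjusted p ran from 0.0556 to 0.136, and without WT ligated replicate 3 the log2 fold change was 1.48.

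Acp5, at chr9:22126727-22135711, encodes tartrate-resistant acid phosphatase, the enzyme used to stain osteoclasts, which macrophages and other cells also make. It measured 38.5, 47.4 and 92.2 CPM in WT ligated tissue against 20.8, 27.2 and 36.5 CPM in WT naive tissue. The libraries labelled CybbKO gave 87.3, 41.8 and 62.6 CPM ligated and 33.6, 24.8 and 36.3 CPM naive. In each genotype the ligated libraries lay above the naive ones, by a narrow margin of the lowest over the highest. Acp5 was already present in naive tissue, at 13.9 ± 3.88 CPM per kb in WT, the second of the members after Ctsk at 23.1 ± 2.21 CPM per kb. Its average log2 fold change was 1.05 (SE 0.25, adjusted p = 0.0101 by edgeR), and neither genotype alone passed (adjusted p = 0.112 in WT and 0.0768 in the libraries labelled CybbKO).

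The fusion genes were close to the floor of detection in naive tissue. Dcstamp (chr15:39745930-39760938) and Ocstamp (chr2:165393760-165400405) encode membrane proteins needed for precursors to fuse. Dcstamp measured 0.65, 0.63 and 3.58 CPM in WT ligated tissue and 0.06, 0.22 and 0.33 CPM in WT naive tissue. In the libraries labelled CybbKO it measured 2.77, 0.37 and 2.14 CPM ligated and 0.40, 0.28 and 0.21 CPM naive. The WT groups were apart, while the CybbKO ones overlapped through ligated replicate 2. Naive libraries held 2 to 14 reads of Dcstamp and ligated ones 14 to 138. Its average log2 fold change was 2.77 (SE 0.63, adjusted p = 0.00836 by edgeR).

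Ocstamp measured 0.42, 0.68 and 1.58 CPM in WT ligated and 0.24, 0.22 and 0.18 CPM in WT naive tissue. The libraries labelled CybbKO held 1.72, 0.53 and 1.41 CPM ligated and 0.12, 0.03 and 0.09 CPM naive, the last being 4, 1 and 3 reads. Its groups did not overlap in either genotype. The log2 fold change was 3.92 (SE 0.68, adjusted p = 0.00452 by edgeR) in the libraries labelled CybbKO and 2.03 (SE 0.60, adjusted p = 0.0898) in WT. The difference between these responses was 1.90 (SE 0.93, unadjusted p = 0.0645, adjusted p = 1.00), which did not pass the test.

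Atp6v0d2, at chr4:19876841-19922605, encodes the d2 subunit of the proton pump's membrane sector, the form made in osteoclasts. It had the largest fold of the tested members in each genotype. It measured 1.72, 3.98 and 13.9 CPM in WT ligated tissue and 0.55, 0.76 and 0.36 CPM in WT naive tissue. In the libraries labelled CybbKO it measured 13.2, 0.86 and 10.6 CPM ligated and 0.12, 0.31 and 0.18 CPM naive. The ligated libraries spanned a 15.4-fold range in the latter genotype and an 8.08-fold range in WT, yet none fell into the naive range of its own genotype. The log2 fold change was 5.32 (SE 1.07, adjusted p = 0.00852 by edgeR) in the libraries labelled CybbKO, 3.53 (SE 0.95, adjusted p = 0.0679) in WT and 4.42 (SE 0.72, adjusted p = 0.00143) on average. The constitutive d1 subunit gene, Atp6v0d1, moved the other way, with an average log2 fold change of -0.35 (SE 0.08, adjusted p = 0.00881). Car2 (chr3:14886273-14900770), the carbonic anhydrase that supplies protons to the pump and is also abundant in red cells and many epithelia, was not higher. It measured 10.9, 8.74 and 16.8 CPM in WT ligated, 12.0, 18.4 and 17.6 CPM in WT naive, 12.1, 13.8 and 11.8 CPM in ligated and 15.3, 14.1 and 15.4 CPM in naive libraries labelled CybbKO. Its average log2 fold change was -0.32 (95% interval -0.68 to 0.03, adjusted p = 0.175 by edgeR). Without WT ligated replicate 3 it was called lower, at -0.48 (adjusted p = 0.0355, in a range over its alternatives of 0.0355 to 0.380). In the libraries labelled CybbKO all 3 ligated values lay below all naive values, as was so for 12.8% of all tested genes.

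The surface receptors also rose. Oscar (chr7:3609813-3616157) encodes a collagen-binding co-stimulatory receptor that signals through the Fc receptor gamma chain, and Itgb3 (chr11:104608000-104670476) the beta3 integrin chain of the sealing zone, which platelets and endothelium carry too. Oscar measured 0.45, 0.71 and 2.31 CPM in WT ligated against 0.18, 0.28 and 0.11 CPM in WT naive tissue. The libraries labelled CybbKO held 2.74, 0.32 and 1.78 CPM ligated and 0.06, 0.28 and 0.31 CPM naive. Both pairs of groups were apart, though ligated CybbKO replicate 2, at 12 reads, lay just above the highest naive library, at 10 reads. The average log2 fold change of Oscar was 2.73 (SE 0.61, adjusted p = 0.00813 by edgeR). Its call in the libraries labelled CybbKO, at 2.90 (SE 0.85, adjusted p = 0.0442), was lost in 5 of the 6 fits that left out 1 library, with adjusted p from 0.0935 to 0.172, and held only without ligated replicate 2. Without ligated replicate 1 it was 2.29.

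Itgb3 measured 11.9, 15.2 and 30.4 CPM in WT ligated and 11.5, 9.24 and 10.9 CPM in WT naive tissue. The libraries labelled CybbKO held 30.9, 11.6 and 33.4 CPM ligated and 6.98, 5.30 and 7.14 CPM naive. The groups were apart in both genotypes, barely so in WT. The log2 fold change was 1.97 (SE 0.40, adjusted p = 0.00943 by edgeR) in the libraries labelled CybbKO and 0.86 (SE 0.39, adjusted p = 0.248) in WT, a difference of 1.10 (SE 0.55, unadjusted p = 0.0698, adjusted p = 1.00) that did not pass. Itga2b, the partner of beta3 on platelets, chosen here after its values were seen, had an average log2 fold change of -0.01 (SE 0.17). Of the 3 platelet genes tested 1 was called higher, Ppbp, a platelet chemokine, at 1.43 (SE 0.43, adjusted p = 0.0315 by edgeR). The 6 platelet markers summed to 141, 506 and 1515 CPM in WT ligated and 884, 545 and 1132 CPM in ligated libraries labelled CybbKO, against 206 to 445 CPM in naive ones, but nearly all of that sum was Ppbp. Among the ligated libraries Itga2b ran otherwise, lowest in WT replicate 3 (7.89 CPM) and highest in CybbKO replicate 2 (15.4 CPM). Gp1ba, Gp9 and Gp6 were also highest of the ligated CybbKO group in replicate 2, at 5, 8 and 11 reads. Pf4, named after its values were seen, went with Itgb3 in WT, lowest in ligated replicate 1 and highest in replicate 3. In the ligated CybbKO group Pf4 was lowest in replicate 2, as Itgb3 was, and highest in replicate 1. The part of platelets in the Itgb3 values was not tested.

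Nfatc1, the master transcription factor of the program, which many other cells express, overlapped across all 4 groups. It measured 19.8, 18.5 and 22.2 CPM in WT ligated, 18.8, 18.6 and 24.2 CPM in WT naive, 25.1, 16.8 and 24.9 CPM in ligated and 22.9, 14.7 and 18.8 CPM in naive libraries labelled CybbKO. The average log2 fold change was 0.11 (95% interval -0.20 to 0.42, adjusted p = 0.617 by edgeR), so its upper bound was a 1.34-fold rise. Calcr (chr6:3685680-3764714), the receptor through which calcitonin restrains osteoclasts, was at the limit of detection. Its reads numbered 7, 3 and 12 in WT ligated, 5, 4 and 9 in ligated libraries labelled CybbKO, 0, 2 and 1 in WT naive and 0, 3 and 2 in naive libraries labelled CybbKO. That is 40 reads in the ligated and 8 in the naive libraries in all, and 0 reads in replicate 1 of each naive group allow up to 0.0914 and 0.0866 CPM. With the filter lifted, edgeR gave an average adjusted p of 0.0481 for Calcr, with a fitted log2 fold change of 1.98 that depends on the prior count at these depths.

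Within each genotype fewer members passed. EdgeR called 1 of 9 higher in WT, against 2.31% of all tested genes, and 5 of 9 in the libraries labelled CybbKO, namely Ctsk, Oscar, Ocstamp, Atp6v0d2 and Itgb3, against 9.95%. DESeq2 called 6 in WT, against 5.66% of all genes higher, and 7 in the libraries labelled CybbKO, against 12.3%. The ligated libraries lay wholly above the naive ones for 7 of 9 in WT, where 13.3% of all genes did, and for 6 of 9 in the libraries labelled CybbKO, where 18.5% did. Without WT ligated replicate 3 the WT log2 fold changes were smaller, at 1.55 for Oscar, 1.66 for Dcstamp, 1.33 for Ocstamp and 2.34 for Atp6v0d2. The larger number of calls in the libraries labelled CybbKO is not evidence of a larger response. The test of that difference called 0 of 9 members by edgeR and by DESeq2 (0.00% of all genes by each), 0 had an unadjusted p under 0.05, and 7 of the 9 estimates were positive.

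**Figure D2:**
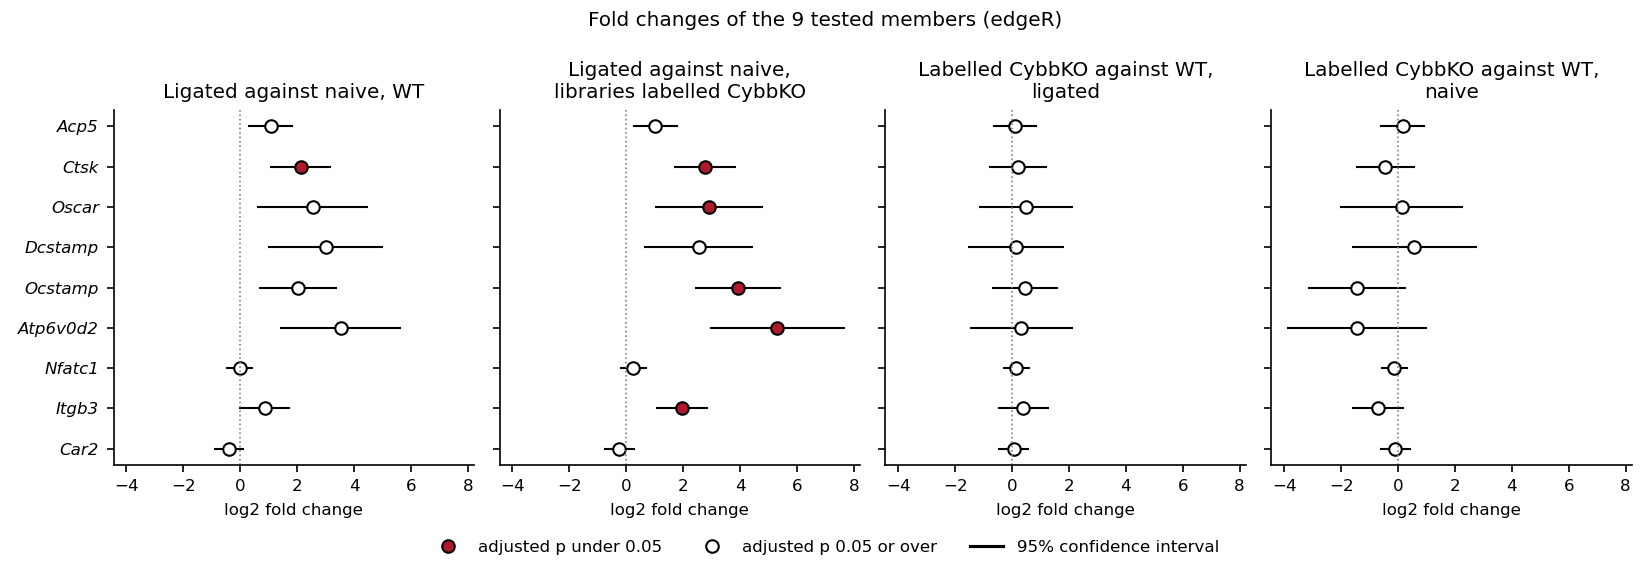
Points give the log2 fold change of the 9 tested members with 95% confidence intervals from edgeR's joint fit, in 4 contrasts; red points have an adjusted p under 0.05. In WT only Ctsk is red, in the libraries labelled CybbKO 5 members are, and between genotypes every interval spans 0.

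Between the genotypes no member was called under the ligature. The 9 log2 fold changes, libraries labelled CybbKO against WT, were all positive and small, from 0.05 for Car2 to 0.49 for Oscar, with a median of 0.21 against 0.01 over all genes. Unadjusted p ran from 0.322 to 0.871, so 0 of 9 were under 0.05, and edgeR and DESeq2 each called 0, as they called 0.00665% and 0.0931% of all genes. No member had groups that did not overlap, against 7.84% of all genes. The intervals were wide. That of Ctsk ran from 0.58-fold to 2.28-fold, that of Acp5 from 0.64-fold to 1.81-fold and that of Atp6v0d2 from 0.37-fold to 4.31-fold. A difference of the size the ligature made in Ctsk, 5.46-fold, lay outside the interval of Ctsk, and smaller differences within these bounds were not detectable at this spread. The sign rested on single libraries for 6 of the 9 members, while Ocstamp (0.10 to 1.15), Nfatc1 (0.05 to 0.31) and Itgb3 (0.14 to 0.90) stayed positive with each library left out. Without CybbKO ligated replicate 1 the estimates of Acp5, Ctsk, Oscar, Dcstamp and Atp6v0d2 were negative, at -0.18, -0.12, -0.12, -0.35 and -0.19, and without WT ligated replicate 3 those of the same genes were 0.57, 0.85, 1.48, 1.46 and 1.53. Leaving out WT ligated replicate 1 also turned Acp5, Ctsk, Dcstamp, Atp6v0d2 and Car2 negative, at -0.14, -0.09, -0.26, -0.13 and -0.04.

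In naive tissue 4 members were lower in all 3 libraries labelled CybbKO than in all 3 WT libraries, where 3.03% of all genes were lower without overlap. They were Ctsk at a log2 fold change of -0.44 (SE 0.46), Ocstamp at -1.44 (SE 0.77), Atp6v0d2 at -1.46 (SE 1.11) and Itgb3 at -0.70 (SE 0.40). None passed the test, with unadjusted p from 0.0858 to 0.352 and adjusted p of 1.00 by edgeR, and Ocstamp and Atp6v0d2 rest on 1 to 24 reads per library there. EdgeR called 0 of the 9 members, with 0 at an unadjusted p under 0.05, and DESeq2 called 0, where they called 0.00665% and 0.0133% of all genes. These naive libraries are also the controls of the ligature responses, so a low naive value raises the response of the same gene in the libraries labelled CybbKO. Sums of bone markers (50.2 to 58.9 against 66.0 to 89.8 CPM in WT) were lower there without overlap too. So were those of monocyte and macrophage markers (72.6 to 81.0 against 84.6 to 97.9 CPM). Erythroid and platelet sums were higher without overlap, and the part of tissue make-up was not tested.

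The ligated libraries of each genotype were far from alike. WT ligated replicate 3 was the highest of its group in 10 of 10 members. Among the ligated libraries labelled CybbKO, replicate 2 was the lowest in 9 of 10 and replicate 1 the highest in 7. Measured against the mean of its own naive group on the log2 CPM scale, Ctsk was up by 1.28, 1.66 and 2.91 in the WT libraries and by 3.27, 1.36 and 3.07 in those labelled CybbKO. Atp6v0d2 was up by 1.58, 2.77 and 4.56 and by 5.75, 1.89 and 5.44 on the same scale. In both genes WT replicate 3 and replicates 1 and 3 labelled CybbKO lay above the other three.

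**Figure D3:**
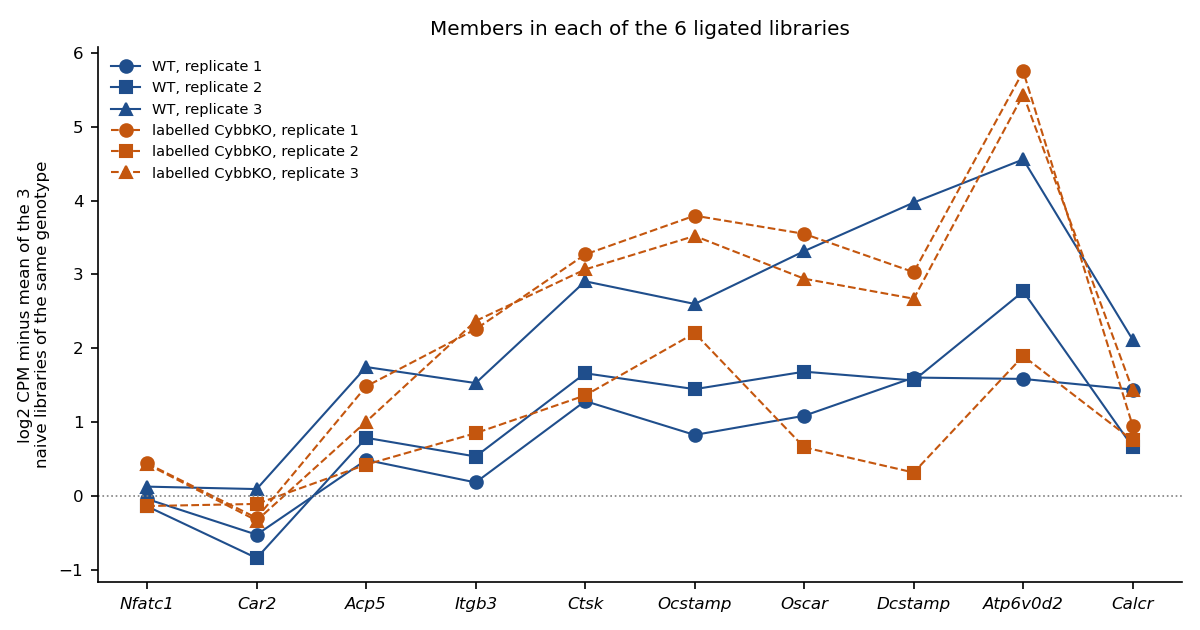
Lines give, for each of the 6 ligated libraries, the log2 CPM of every member minus the mean of the 3 naive libraries of the same genotype (vertical axis, log2 units); members are ordered for display only. WT replicate 3 and replicates 1 and 3 labelled CybbKO run above the other three over Ctsk (2.91, 3.27 and 3.07 against 1.28 to 1.66) and Atp6v0d2 (4.56, 5.75 and 5.44 against 1.58 to 2.77).

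The within-group SD of log2 CPM in ligated tissue was 0.95 for Ctsk, 1.85 for Atp6v0d2, 1.43 for Dcstamp, 1.35 for Oscar, 0.88 for Ocstamp, 0.78 for Itgb3 and 0.60 for Acp5. The median over all tested genes was 0.23. For Atp6v0d2, 0.272% of all genes had a larger SD. In naive tissue Ctsk had an SD of 0.17 and Itgb3 of 0.20, below the median of 0.27 over all genes. Acp5 (0.35), Ocstamp (0.40), Atp6v0d2 (0.51), Dcstamp (0.69) and Oscar (0.76) lay above that median in naive tissue. Under the ligature Nfatc1, at 0.25, and Car2, at 0.35, lay nearer to the median of all genes. After the group means were subtracted, Pearson's r of log2 CPM between pairs of the 7 members that rose ran from 0.63 to 0.95 over the 12 libraries, with a median of 0.82. Nfatc1 gave 0.25 to 0.74 with those members and Car2 0.15 to 0.58. The points share libraries and tissue make-up, the 7 were picked by their fold, and the largest deviations came from the 6 ligated libraries.

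The tested genes outside the members that followed Ctsk most closely by the same measure were Vim (r = 0.99), the mesenchymal filament vimentin, Mmp13 (0.98), a collagenase of osteoblasts and chondrocytes, Pdzrn4 (0.97), Fgf7 (0.97), a fibroblast growth factor for epithelium, and Slc9b2 (0.97), a sodium-proton exchanger enriched in osteoclasts. Those that followed Acp5 were Msx1 (0.97), a homeobox factor of mesenchyme, Add2 (0.96), Olfm1 (0.96), Chn1 (0.96) and Kank2 (0.94). The median r of all genes was 0.04 with Ctsk and 0.01 with Acp5. Of these 10 genes, Slc9b2 alone is on the lists of osteoclast pathway genes described below.

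The summed levels of some other cell types differed between the ligated libraries along with the members. The 10 members together measured 169, 206 and 445 CPM in WT ligated libraries and 423, 152 and 363 CPM in ligated libraries labelled CybbKO. Markers of osteoblasts and bone, 10 genes, gave 63.0, 98.3 and 187 CPM and 155, 69.8 and 120 CPM in the same order, against 50.2 to 89.8 CPM in naive libraries. The highest and the lowest sum of each group were in the same libraries as for the members. Sp7, Runx2, Ibsp, Alpl and Dmp1 each had that order. Among the ligated libraries labelled CybbKO, Bglap, Bglap2 and Phex, named after their values were seen, were lowest in replicate 3. There Bglap2 and Phex were highest in replicate 2, at 5.56 and 1.79 CPM. Keratinocyte genes gave 96566, 81960 and 64246 CPM in WT and 69644, 111229 and 62160 CPM in those labelled CybbKO. This was the reverse of the members' order in WT, and CybbKO ligated replicate 2, the lowest in the members, was the highest of its group. Monocyte and macrophage markers, 12 genes, gave 120, 161 and 169 CPM and 242, 183 and 247 CPM, above the 72.6 to 97.9 CPM of naive libraries in every ligated library. Within the groups their sum had the members' order in WT and was lowest in CybbKO replicate 2. Single markers, named after their values were seen, differed. Adgre1, Mrc1, Itgam, Fcgr1, C1qa, C1qb and C1qc were highest of their group in WT replicate 2. In CybbKO replicate 2, C1qa (16.7 CPM), C1qb (25.1 CPM) and C1qc (14.5 CPM) were highest of their group, and the other markers lowest. WT replicate 3, the highest in the members, had a lower sum of these markers than CybbKO replicate 2. Csf1r, Ccr2, Mrc1, Cd68, Adgre1 and Mertk were each higher in WT replicate 3 than in CybbKO replicate 2, and the other markers lower. Tooth genes, nearly all Odam by level, had the members' order in both groups, at 243, 271 and 721 CPM and 542, 291 and 419 CPM. Endothelial genes had it in WT and were likewise lowest in CybbKO replicate 2. The neutrophil sum did the same, but it was nearly all S100a8 and S100a9, and Ly6g, Retnlg and Mmp8 were highest of their group in CybbKO ligated replicate 2. Erythroid genes had the members' order in WT but not in those labelled CybbKO, and skeletal muscle genes in neither. The part of tissue make-up in the members' values was not tested.

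**Figure D4:**
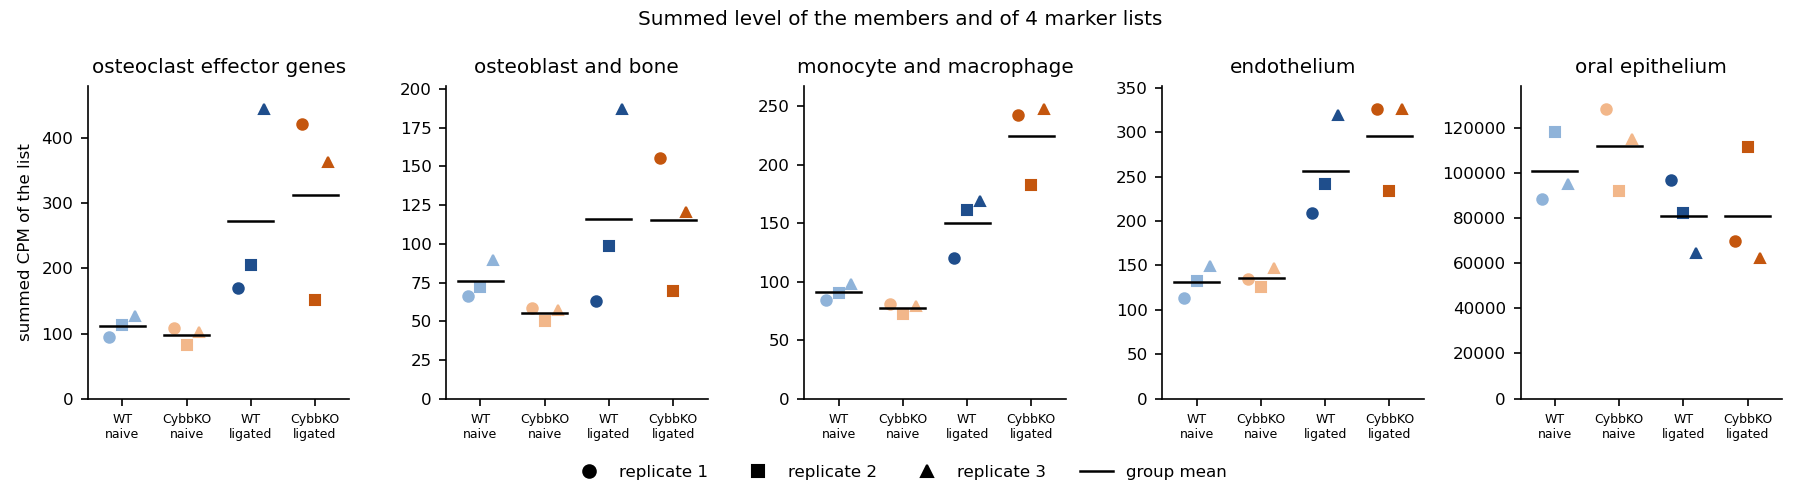
Panels give the summed CPM (linear axes from 0) of the 10 members and of 4 lists of marker genes in the 12 libraries, with a line at the group mean. Summed bone markers were 63.0, 98.3 and 187 CPM in WT ligated libraries and 155, 69.8 and 120 CPM in those labelled CybbKO. The order of these sums is that of the members in each group, though Bglap, Bglap2 and Phex ran otherwise in those labelled CybbKO. Among the ligated libraries of each group, keratinocyte genes are lowest in WT replicate 3 (64246 CPM) and highest in CybbKO replicate 2 (111229 CPM).

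All 12 monocyte and macrophage markers were called higher with the ligature on average, as were 8 of 8 neutrophil and 6 of 6 endothelial markers, beside 14.7% of all tested genes. Of the 8 bone markers tested, 4 were called higher, Alpl (log2 fold change 1.18), Sp7 (1.17), Dmp1 (2.28) and Ibsp (2.33). Ibsp, which encodes bone sialoprotein, measured 5.90, 20.4 and 52.8 CPM in WT ligated and 38.9, 4.44 and 24.8 CPM in ligated libraries labelled CybbKO. The osteocyte markers Sost and Mepe stayed under the filter. Of the 8 keratinocyte genes, 2 were called lower, Krt10 (-1.70) and Krt76 (-0.72), beside 9.66% of all tested genes.

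Upstream of the members, several ligand and receptor genes of osteoclast formation rose as well. Of 7 such genes, 5 were called higher on average and 0 lower, beside 14.7% and 9.66% of all tested genes. Tnfsf11, which encodes RANKL, had a log2 fold change of 3.37 (SE 0.72, adjusted p = 0.00652 by edgeR), with 0.82, 0.71 and 4.75 CPM in WT ligated and 7.78, 0.45 and 10.2 CPM in ligated libraries labelled CybbKO against 0.22 to 0.49 CPM in naive ones. WT ligated replicate 3 was the highest and CybbKO ligated replicate 2 the lowest of its group, as for the summed members, while the other extremes were different libraries. Its decoy Tnfrsf11b, osteoprotegerin, rose by 1.25 (SE 0.27), Csf1, the M-CSF gene, by 0.83 (SE 0.17) and its receptor Csf1r by 1.23 (SE 0.14). The RANK gene Tnfrsf11a, the remaining call, named after its values were seen, rose by 1.12 (SE 0.31). Il34 and Traf6, also named after their values were seen, were not called. In WT, Il34 lay lower in ligated (11.7 to 13.4 CPM) than in naive libraries (14.7 to 16.7 CPM). It overlapped between conditions in the libraries labelled CybbKO. Beside the same 14.7% of all tested genes, 4 of 8 tested genes of ITAM signalling, the co-stimulatory route used by OSCAR, rose. These were the adaptors Fcer1g (1.58) and Tyrobp (1.35), the receptor Trem2 (1.69) and the kinase Btk (1.47), all made by myeloid cells in general.

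Among 10 transcription factors of the pathway only Spi1, the PU.1 gene (1.26, SE 0.27), and Fosl2 (0.50, SE 0.14) passed, and the median of the list was 0.11. That is near the 14.7% of all tested genes called higher. Beside the same share, 2 of 5 repressors of the program were called higher, among them Irf8 (0.82), which macrophages also express. Of 17 acid secretion genes, Snx10 (0.83), Tcirg1 (0.60) and Slc9b2 (1.58) rose, and the broadly expressed pump subunits Atp6v0d1 (-0.35), Atp6v0b (-0.29) and Atp6v1d (-0.27) fell, the last pair named after their values were seen. Tcirg1 encodes the a3 pump subunit and Snx10 a sorting nexin, both needed for bone resorption. Beside 14.7% of all genes called higher and 9.66% lower, 3 of 17 in each direction is near the background, and the median of the list was -0.04. Of 10 tested genes of adhesion, sealing and fusion, Adam8 (0.83) and Sh3pxd2a (0.42) rose, again near the background. Of 5 matrix proteases Ctss (1.53), Mmp9 (1.34), Mmp14 (1.17) and Ctsb (0.37) rose, beside 14.7% of all genes. Over the 7 lists 22 of 62 tested genes were called higher and 3 lower on average, beside 14.7% and 9.66% of all genes. In the genotype contrasts and in the test of the difference between responses, 0 of these 62 genes were called by edgeR or DESeq2.

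**Figure D5:**
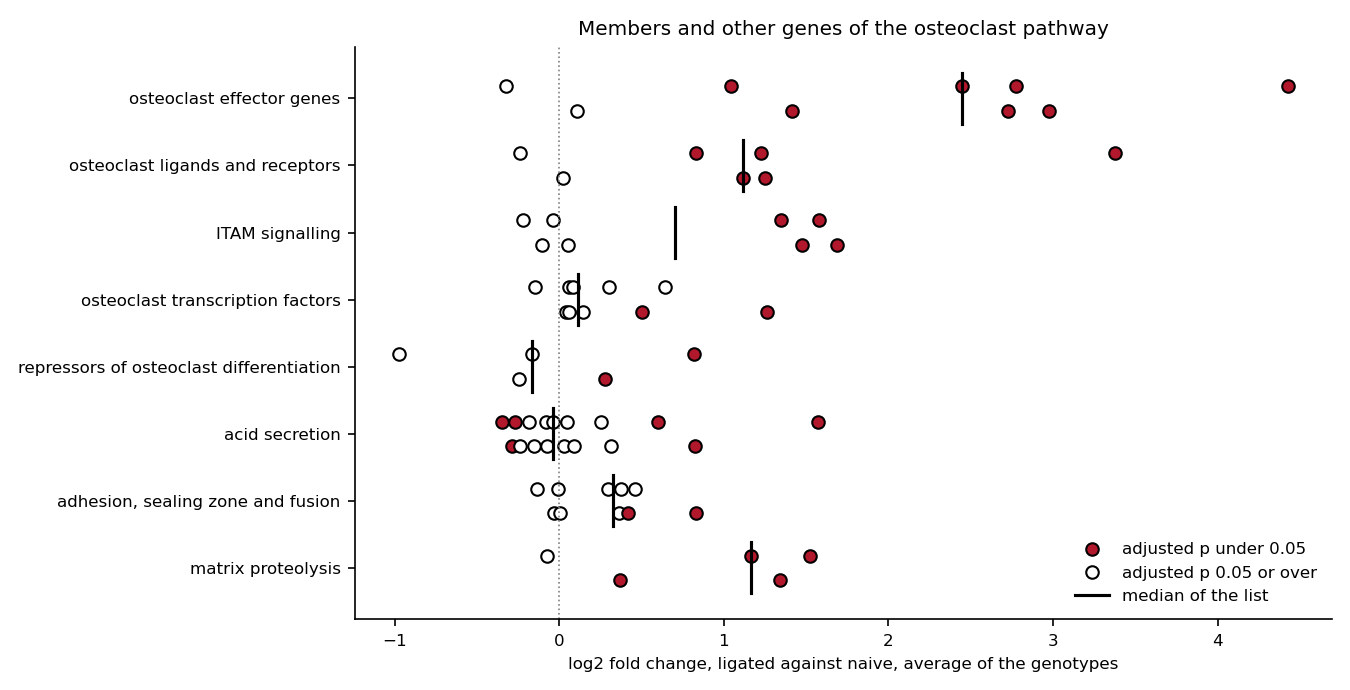
Points give the log2 fold change of each tested gene, ligated against naive, averaged over the genotypes, by list; red points have an adjusted p under 0.05 in edgeR and bars are list medians. The members have the highest median, 2.45, and transcription factors (0.11) and acid secretion genes (-0.04) lie near 0.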

How the data were processed

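RNA-seq was measured in 12 libraries of gingival tissue. The authors deposited raw counts of reads per gene, with no normalization. Per the study's methods, stranded mRNA libraries were aligned with STAR to GRCm38 and counted by strand with featureCounts, while the submitters' processing notes list HTSeq 0.10.0 and FastQC 0.10.1. If reads shared by genes were dropped, counts of genes with close relatives are low. Groups came from the sample labels. Of the 21965 genes, 21939 were matched to GENCODE M21.

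All contrasts came from 1 joint quasi-likelihood fit with 1 mean per group in edgeR 4.0.16 (R 4.3.3), with TMM scaling and the filterByExpr filter. P-values were adjusted by Benjamini-Hochberg over all 15046 tested genes, and a gene was called at an adjusted p under 0.05. Intervals are 95%. Log2 CPM used a prior count of 2, and CPM per kb used the union of exons. DESeq2 1.42.0 (Wald test), other scalings and filters, a fit of the 6 libraries compared, a replicate block and each library left out in turn were alternatives. P-values and 95% intervals rest on the spread between the 3 mice of each group, estimated over all groups in the joint fit. The CPM limits given for 0 reads cover counting error only.

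The members, the 19 other lists and the comparisons were chosen with earlier results of these data known. Named were the members, up to 4 genes of each list (called genes with the smallest p, else the most abundant) and the 5 genes most correlated with Acp5 and with Ctsk. Exceptions are marked in the text. The result of 1 listed gene is not reported here.

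Promoter sequences and annotated starts came from RefSeq (GRCm38.p6). Figures were drawn in matplotlib 3.10.9.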

Additional observations from a re-analysis of the deposited data

How the results depend on the processing

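The average response to the ligature held for Acp5, Ctsk, Oscar, Dcstamp, Ocstamp, Atp6v0d2 and Itgb3 in all alternatives that tested them, the 12 fits that left out 1 library included. The numbers of members called between genotypes and for the difference between responses stayed at 0 throughout. A filter of 10 counts in every library left 5 members testable, of which 3 were called on average and 2 in the libraries labelled CybbKO. In WT the number of members called was 6 by DESeq2, 0 with the replicate block, and from 0 to 1 with each library left out. The WT log2 fold change of Nfatc1 turned positive with scaling by library size only (0.08), which moved the median of all genes likewise, from -0.03 to 0.08, and ran from -0.10 to 0.11 with libraries left out.

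Under the ligature, leaving out each library moved the genotype log2 fold change from -0.18 to 0.57 for Acp5, -0.12 to 0.85 for Ctsk, -0.12 to 1.48 for Oscar, -0.35 to 1.46 for Dcstamp, -0.19 to 1.53 for Atp6v0d2 and -0.14 to 0.36 for Car2, while Ocstamp (0.10 to 1.15), Nfatc1 (0.05 to 0.31) and Itgb3 (0.14 to 0.90) kept their sign. The cause was not tested. Over the alternatives the adjusted p of Oscar in the libraries labelled CybbKO ran from 0.00643 to 0.172 and that of Ctsk in WT from 0.000125 to 0.136.

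The replicate numbers did not pair the libraries. Deviations of same-numbered libraries correlated at -0.23 to 0.28 over 18 pairs, with 2 above 0.1. The replicate block lost Ctsk in WT (2.01, adjusted p = 0.0584 by edgeR) and Oscar in the libraries labelled CybbKO (2.86, adjusted p = 0.0787), where 4 members were called, and left 7 called on average. Counts of Oscar, Dcstamp, Ocstamp, Atp6v0d2 and Calcr in naive tissue were too low for firm folds.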

Other observations

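Of the 64 genes on the 7 pathway lists, 2 were too low to test, and they are named here after their values were seen. Siglec15, a sialic acid receptor of osteoclasts that signals through DAP12, had 0 reads in all 6 naive libraries, which allows up to 0.0154 CPM over them together. It had 1, 1 and 0 reads in WT ligated libraries and 3, 1 and 5 in ligated libraries labelled CybbKO. Tm4sf19, a tetraspan protein linked to osteoclast fusion, had 1 read over the naive libraries and 46 over the ligated ones, at 5, 4 and 14 in WT and 15, 1 and 7 in those labelled CybbKO. The highest Tm4sf19 library of each ligated group was also the highest for most members, WT ligated replicate 3 and CybbKO ligated replicate 1, and CybbKO ligated replicate 2 was again the lowest.

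Of the remaining marker lists, edgeR called on average 3 of 4 muscle satellite cell genes, 1 of 8 skeletal muscle genes and 1 of 3 tested platelet genes higher, beside 14.7% of all tested genes higher and 9.66% lower. Of 6 lymphocyte genes 3 were higher and 2 lower, and of 6 salivary gland genes 1 was higher and 1 lower. Of 3 tested tooth genes 0 were called by edgeR and 1 by DESeq2, with 2 at an unadjusted p under 0.05. Of 7 erythroid genes 0 were called by either tool, and 0 had an unadjusted p under 0.05. Erythroid genes had the members' order in the WT ligated libraries and not in those labelled CybbKO. They summed to 1211 CPM in WT ligated replicate 3, the library highest in the members, and to 811 CPM in CybbKO ligated replicate 2, which was low in them, against 34.5 to 178 CPM in the other 4 ligated libraries.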
